A study of Mus musculus with 12 samples.

Results

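Amhr2 and 7 transcription factor genes of the Müllerian duct (Pax2, Pax8, Emx2, Lhx1, Lhx9, Nr2f2 and Gata6) were read in the newborn mouse reproductive tract, on every one of their 19 array probes. These 8 genes, of 19057 with an annotated probe, were found by the gene symbol of the platform annotation, and they were chosen by their log2 differences between the groups in these same arrays. Their levels and differences are therefore a description, with no test. The samples were 4 pools of cKO vagina (both Trp63 copies floxed, with Pax2-cre), 4 of cHet vagina and 4 of cHet uterus (1 floxed and 1 wild-type Trp63 copy, with Pax2-cre). All were female, at postnatal day 3, with CD-1, C57BL/6 and S129/5 in their background, and each pool held the organs of 3 mice. Every group carried Pax2-cre and at least 1 floxed copy, so no group had the unmodified genotype, and no source used here gives the cells in which the transgene acts. In whole organs, fewer cells of a type and less RNA per cell cannot be told apart.

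The Müllerian duct is the embryonic tube that gives rise to the oviduct, the uterus and the upper vagina. Lhx1, Pax2, Pax8 and Emx2 are homeobox or paired-box factors needed for its formation or growth, and the first 3 are also genes of the nephric duct beside it. Amhr2 encodes the type II receptor for anti-Müllerian hormone and is made in the mesenchyme around the duct. In males its signal makes the duct regress. Lhx9 and Gata6 act in the gonad and in mesoderm-derived mesenchyme. Nr2f2, also called COUP-TFII, is a nuclear receptor of stroma and of venous endothelium.

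The windows around the start sites of the receptor gene and of 2 of the factors are shown because Amhr2 and Nr2f2 were higher in uterus and Pax8 higher in vagina. The 3 sequences run from 250 bases before to 50 bases after the RefSeq start site (build GRCm38.p6). They lie at chr15:102445117-102445416 on the + strand for Amhr2, chr7:70366697-70366996 on the - strand for Nr2f2 and chr2:24475550-24475849 on the - strand for Pax8. Capitals mark any match to 3 short motifs searched on both strands.
Amhr2: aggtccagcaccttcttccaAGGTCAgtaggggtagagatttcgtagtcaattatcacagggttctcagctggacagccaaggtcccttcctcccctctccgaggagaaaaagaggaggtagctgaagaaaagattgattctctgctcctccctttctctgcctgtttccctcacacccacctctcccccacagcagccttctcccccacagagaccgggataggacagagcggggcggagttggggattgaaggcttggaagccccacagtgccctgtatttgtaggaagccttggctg
Nr2f2: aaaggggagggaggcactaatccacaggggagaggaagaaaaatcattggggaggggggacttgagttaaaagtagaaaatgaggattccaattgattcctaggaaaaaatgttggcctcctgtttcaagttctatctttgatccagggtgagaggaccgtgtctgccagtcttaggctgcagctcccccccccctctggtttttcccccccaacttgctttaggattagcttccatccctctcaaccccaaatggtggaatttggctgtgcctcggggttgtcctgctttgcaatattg
Pax8: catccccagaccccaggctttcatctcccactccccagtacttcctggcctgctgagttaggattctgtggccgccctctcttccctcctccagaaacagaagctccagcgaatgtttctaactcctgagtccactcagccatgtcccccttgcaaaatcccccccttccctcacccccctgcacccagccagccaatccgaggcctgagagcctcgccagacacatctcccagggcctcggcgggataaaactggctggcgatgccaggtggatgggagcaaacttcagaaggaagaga
The motifs were AGGTCA, a core of nuclear receptor sites, AGATAA, a site of GATA factors, and TAATTA, a core of homeodomain sites. Amhr2 held 1 AGGTCA, at -230 from the start site, and neither Nr2f2 nor Pax8 held any of the 3. AGGTCA stands in 16.3% of all 32851 windows of this length, AGATAA in 11.2% and TAATTA in 5.29%. A match describes the letters and is not a binding site.

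The organs read as labelled on Hoxa11 and Isl1. Hoxa11, a Hox gene of the uterus, had a mean log2 intensity of 4.84 in cHet vagina and 7.36 in cHet uterus. Isl1, of the distal tract, had 10.36 in cHet vagina and 4.36 in cHet uterus. Hoxa10 was not measured above background on enough arrays to be tested. Of 4 urothelial markers, 3 were higher and 1, Upk1b, was lower in cHet vagina than in cHet uterus (limma adjusted p under 0.05). At this limit 9.41% of all genes were higher and 9.14% lower. Upk2 had 7.43 in cKO vagina, 8.79 in cHet vagina and 4.475 in cHet uterus. The part of urothelium in the differences between organs was not tested. Whether the Trp63 probe lies within the deleted exons is unknown here, so its level, at 9.53 ± 0.37 in cKO vagina and 9.59 ± 0.18 in cHet vagina (SD, n = 4 each), checks neither the deletion nor the labels. Between 39.2% and 45.8% of probes were above background per array. Replicates 1 and 2 stood apart from replicates 3 and 4 in every group on the second principal component, with 14.8% of the variance, and 12.3% of genes were called between these sets, so differences within each set are given too.

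Amhr2 was the member with the largest contrast between organs: it was low in both vaginal groups and high in every uterus pool. On its brightest probe (ILMN_2684178) the log2 intensity was 5.13, 4.99, 5.59 and 5.22 in cKO vagina replicates 1 to 4. It was 5.50, 5.03, 5.51 and 5.65 in the cHet vagina pools in the same order, and 8.67, 8.89, 9.15 and 9.13 in the cHet uterus pools. The 2 vaginal groups overlapped, and all 8 vaginal pools lay below all 4 uterus pools. The mean was 5.42 ± 0.27 in cHet vagina and 8.96 ± 0.23 in cHet uterus (SD, n = 4 each), a difference of -3.54 (log2, SE 0.17), or 11.6-fold lower in cHet vagina. Of the 11202 genes tested, each on its brightest kept probe, 0.214% differed by at least this size between these groups. Amhr2 was chosen by such differences, so this share is a description and carries no weight. For cKO vagina, with a mean of 5.23 ± 0.26, the difference from cHet uterus was -3.73 (SE 0.17), or 13.3-fold lower. The probe was above background on all 12 arrays, so its vaginal level was low but measurable. The difference between cHet vagina and cHet uterus was -3.52 in replicates 1 and 2 and -3.56 in replicates 3 and 4.

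The other Amhr2 probes ran the same way over a smaller range. ILMN_2621799 had 4.35 ± 0.092 in cHet vagina and 5.74 ± 0.31 in cHet uterus (log2, mean ± SD, 4 pools each), or -1.40 apart. ILMN_2994042 had 4.29 ± 0.17 in cHet vagina and 5.53 ± 0.35 in cHet uterus, a difference of -1.24. Each was above background in 4 of 4 uterus pools and in 1 of 4 cHet vagina pools, so both were read against a level close to background. ILMN_2994042 was not above background in any cKO vagina pool. Against the lowest signal above background there, it was at least 2.18-fold lower in cKO vagina than in cHet uterus. The 3 probes therefore had 1 direction and different sizes, and the size of the Amhr2 difference is known less well than its direction: it was -2.06 as the mean of the 3 probes and -2.41 on the brightest probe with no background correction.

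**Figure D1:**
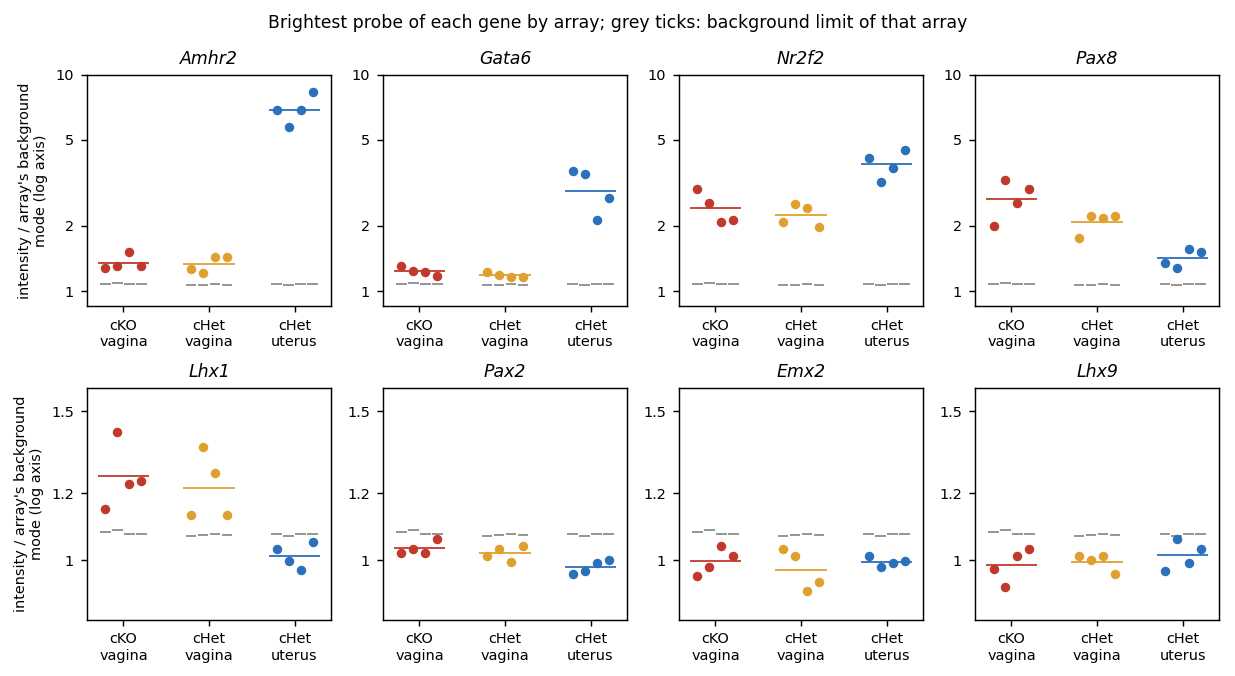
The brightest probe of each of the 8 genes on each of the 12 arrays, as the intensity divided by that array's background mode (log axis; the 3 lower right genes and Lhx1 have a narrower axis). Points are replicates 1 to 4 from left to right, coloured lines are geometric means and grey ticks are each array's limit for calling a probe above background. Amhr2, Gata6 and Nr2f2 stand highest in cHet uterus, Pax8 and Lhx1 stand highest in the vaginal groups, and Pax2, Emx2 and Lhx9 stay under the ticks.

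The genes around Amhr2 in its pathway moved less. Of 16 genes of the hormone, its type I receptors, their Smad proteins and known targets, 15 had a probe and 11 could be tested. This list and those below were written with earlier results of these data known. Called at a limma adjusted p under 0.05 were 0 higher and 3 lower in cHet vagina than in cHet uterus, where 9.41% of all genes were called higher and 9.14% lower. Sp7, a transcription factor that the hormone induces in male mouse duct mesenchyme, had 4.57, 4.74, 4.71 and 5.03 in cKO vagina replicates 1 to 4. It had 5.58, 5.05, 4.99 and 4.56 in the cHet vagina pools in the same order and 6.23, 6.73, 6.29 and 5.86 in the cHet uterus pools. All vaginal pools lay below all uterus pools, with a difference of -1.23 between cHet vagina and cHet uterus (SE 0.21, limma adjusted p = 0.000408). Id3, a target of BMP-type Smad signals, was lower in cHet vagina by a log2 difference of -1.09 (SE 0.21, limma adjusted p = 0.00108). Smad5, which carries the signal to the nucleus, had -0.58 (SE 0.13, limma adjusted p = 0.00293), while its other probe had -0.13 and it was not called as the mean of both or within replicates 1 and 2 (limma adjusted p = 0.180). The type I receptors Acvr1 and Bmpr1a had -0.16 (limma adjusted p = 0.744) and -0.21 (limma adjusted p = 0.409). The median of the 11 genes was -0.16, against -0.015 over all genes tested. Amh itself, which encodes the hormone, did not pass the filter on dim probes.

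Gata6 followed Amhr2 in its direction. On its brighter probe (ILMN_2868133) the log2 intensity was 5.23, 4.82, 4.93 and 4.77 in cKO vagina replicates 1 to 4. It was 5.42, 4.98, 4.76 and 4.82 in the cHet vagina pools in the same order, and 7.59, 8.07, 6.95 and 7.20 in the cHet uterus pools. All uterus pools lay above all vaginal pools, and uterus replicates 1 and 2 lay above uterus replicates 3 and 4. The mean was 4.99 ± 0.30 in cHet vagina and 7.45 ± 0.49 in cHet uterus (SD, n = 4 each), a difference of -2.46 (SE 0.22), or 5.51-fold lower in cHet vagina. The difference of cKO vagina from cHet uterus was -2.51 (SE 0.22), or 5.71-fold lower. It was -2.63 between cHet vagina and cHet uterus in replicates 1 and 2 and -2.29 in replicates 3 and 4, and -1.35 with no background correction. The other Gata6 probe (ILMN_1255968) was above background in 0 of 4 cKO vagina pools, 0 of 4 cHet vagina pools and 3 of 4 uterus pools. Its bound was at least 1.04-fold lower in cHet vagina, the same direction at the edge of detection.

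Zfpm2, which encodes the GATA cofactor FOG2, was likewise high in every uterus pool. It had 4.59, 4.56, 4.67 and 4.35 in cKO vagina replicates 1 to 4, 4.60, 4.48, 4.40 and 4.31 in cHet vagina and 7.30, 7.53, 6.20 and 6.47 in cHet uterus (log2). As for Gata6, uterus replicates 1 and 2 were the highest. The difference between cHet vagina and cHet uterus was -2.43 (SE 0.23, limma adjusted p = 1.33e-06), and Zfpm2 was above background in 2 of 4 cHet vagina pools. Genes of the mesothelium, the lining of the peritoneal cavity, also differed between the organs: the summed level of the 5 markers with a probe ran from 525 to 1040 in cKO vagina, 689 to 1150 in cHet vagina and 1130 to 1940 in cHet uterus (background-corrected intensity). Of the 4 tested, 3 were called lower and 1 higher in cHet vagina than in cHet uterus, and uterus replicates 1 and 2 had the highest sums, 1940 and 1480. Upk3b, a mesothelial gene, had 5.91 ± 0.51 in cHet vagina and 9.62 ± 0.36 in cHet uterus (log2, SD, n = 4 each). This order of the uterus replicates was not particular to mesothelial genes. Hand2, a stromal factor, had 6.10, 5.98, 5.21 and 5.22 in uterus replicates 1 to 4, while Amhr2 did not have this order. The part of mesothelium in the Gata6 and Zfpm2 differences was not tested.

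Relatives of the factors were mostly dim. Of 23 Pax, Emx, Lim homeobox, Nr2f and Gata genes that are not members, 22 had a probe and 4 were tested. Between cHet vagina and cHet uterus, 1 was called higher and 1 lower in vagina, where 9.41% of all genes were higher and 9.14% lower. Gata3, a gene of nephric duct and of squamous epithelium, was above background in 0 of 4 uterus pools and was at least 1.78-fold higher in cHet vagina (limma adjusted p = 0.000315). Gata5 was not above background in any vaginal pool and was at least 1.34-fold lower in cHet vagina (limma adjusted p = 0.00126). Both passed the filter only through the groups in which they were high. Gata2, a factor of blood precursors and of urogenital tissue, had 10.43 ± 0.14 in cKO vagina, 10.47 ± 0.32 in cHet vagina and 10.42 ± 0.34 in cHet uterus (log2, SD, n = 4 each).

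Nr2f2 had the smallest contrast of the 3 genes that were higher in uterus. On its brightest probe (ILMN_3163196) the log2 intensity was 7.38, 6.62, 6.43 and 6.60 in cKO vagina replicates 1 to 4. It was 7.04, 7.06, 6.85 and 6.55 in the cHet vagina pools in the same order, and 7.84, 7.94, 8.09 and 8.15 in the cHet uterus pools. The vaginal groups overlapped and lay below the uterus, with cKO vagina replicate 1 the nearest to it. The mean was 6.88 ± 0.24 in cHet vagina and 8.01 ± 0.14 in cHet uterus (SD, n = 4 each), a difference of -1.13 (SE 0.19), or 2.19-fold lower in cHet vagina. For cKO vagina it was -1.25 (SE 0.19), or 2.38-fold lower. The contrast differed between the sets of replicates, since cHet vagina minus cHet uterus was -0.84 in replicates 1 and 2, against -1.42 in replicates 3 and 4. Probe ILMN_3076625 ran the same way, with -0.93, and so did ILMN_2695912, with -0.63 and overlapping groups, and the fourth was not above background on any array. Endothelial genes, like Nr2f2, were higher in uterus than in vagina. The summed level of 6 markers was 520 to 686 in cKO vagina, 528 to 758 in cHet vagina and 1160 to 1350 in cHet uterus. Within cHet vagina the sum was lowest in replicate 2, at 528, where Nr2f2 was highest, at 7.06. Of the 5 tested, 3 were called lower in cHet vagina than in cHet uterus, where 9.14% of all genes were. Kdr was not above background on any array. The part of endothelial genes in the Nr2f2 difference was not tested.

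In the adult mouse uterus, Nr2f2 acts in the stroma downstream of hedgehog signals from the epithelium, and 12 genes of that axis were read beside it. Probes existed for 11 and 5 could be tested, with 0 called higher and 2 lower in cHet vagina than in cHet uterus. Over all genes, 9.41% were called higher and 9.14% lower. Gli2, a hedgehog effector, had 7.18 ± 0.13 in cHet vagina and 8.12 ± 0.33 in cHet uterus (log2, mean ± SD, 4 pools each), which differ by -0.94 (SE 0.17, limma adjusted p = 0.000719). Hand2, a stromal factor, had -1.14 (SE 0.19, limma adjusted p = 0.000394). Ptch1, the hedgehog receptor, stood the other way, with 5.36 ± 0.14 in cKO vagina, 4.97 ± 0.16 in cHet vagina and 4.61 ± 0.13 in cHet uterus (log2, SD, n = 4 each). Its difference between cHet vagina and cHet uterus was 0.36 (SE 0.13, limma adjusted p = 0.0725, and 0.0493 with the replicate block). Its difference between cKO vagina and cHet uterus was 0.75 (limma adjusted p = 0.000628). Ihh, the ligand of the adult uterus, did not pass the filter.

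Pax8 and Lhx1 stood the other way from Amhr2, higher in vagina than in uterus. Pax8 on its brightest probe (ILMN_1256173) had log2 6.47, 7.14, 6.89 and 7.28 in cKO vagina replicates 1 to 4. It had 6.60, 6.79, 6.61 and 6.84 in the cHet vagina pools in the same order, and 5.38, 5.68, 6.16 and 5.80 in the cHet uterus pools. Every vaginal pool lay above every uterus pool, by a narrow margin between cKO vagina replicate 1 and uterus replicate 3. The mean was 6.71 ± 0.12 in cHet vagina and 5.76 ± 0.32 in cHet uterus (SD, n = 4 each), a difference of 0.96 (SE 0.19), or 1.94-fold higher in cHet vagina. For cKO vagina, with 6.94 ± 0.35, the difference from cHet uterus was 1.19 (SE 0.19), or 2.28-fold higher. The difference between cHet vagina and cHet uterus was 1.17 in replicates 1 and 2 and 0.74 in replicates 3 and 4. Probe ILMN_1218213 had 0.42 with overlapping groups. ILMN_2616389 was above background in 2 of 4 cKO vagina, 2 of 4 cHet vagina and 0 of 4 uterus pools, and its bound was at least 1.03-fold higher in cHet vagina, so it says little about direction. The separation of the organs rested on 1 probe.

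Lhx1 was read near the limit of detection. On ILMN_1225672 it had log2 4.71, 5.23, 4.92 and 5.03 in cKO vagina replicates 1 to 4. It had 4.94, 5.47, 5.12 and 4.71 in the cHet vagina pools in the same order, and 4.24, 4.17, 4.12 and 4.32 in the cHet uterus pools. The probe was above background in 8 of 8 vaginal pools and in 0 of 4 uterus pools, so it passed the filter only through the vaginal groups and the uterus level is a bound. Lhx1 was at least 1.39-fold higher in cKO vagina and at least 1.47-fold higher in cHet vagina than in cHet uterus, with measured means of 4.97 in cKO vagina, 5.06 in cHet vagina and 4.21 in cHet uterus. Its other probe was above background in 1 of 4 cKO vagina, 2 of 4 cHet vagina and 0 of 4 uterus pools.

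Epithelial markers, like Pax8 and Lhx1, were higher in vagina than in uterus. Their summed level (8 genes) was 6460 to 10400 in cKO vagina, 7840 to 12200 in cHet vagina and 3430 to 4250 in cHet uterus. Of the 8, 7 were called higher in cHet vagina than in cHet uterus, where 9.41% of all genes were. Within cKO vagina, replicate 4 had the lowest epithelial sum, 6460, and the highest Pax8, 7.28. Mesenchyme markers (10 genes) summed to 17700 to 20500 in cKO vagina, 15000 to 20800 in cHet vagina and 12400 to 14700 in cHet uterus. Of these 10, 2 were called higher and 2 lower in cHet vagina than in cHet uterus. Of 10 measured markers of kidney and nephric duct, 4 were not above background on any array (Slc34a1, Nphs1, Kap and Calb1) and 1 of the 4 tested was called higher in cHet vagina. This was Ret, a receptor of the nephric duct and of enteric nerve precursors, with 5.97 ± 0.46 in cHet vagina (log2, SD, n = 4). Ret was above background in 0 of 4 uterus pools, so it passed the filter only through the vaginal groups. The part of the epithelial, mesenchymal and nephric duct markers in the Pax8 and Lhx1 differences was not tested.

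**Figure D2:**
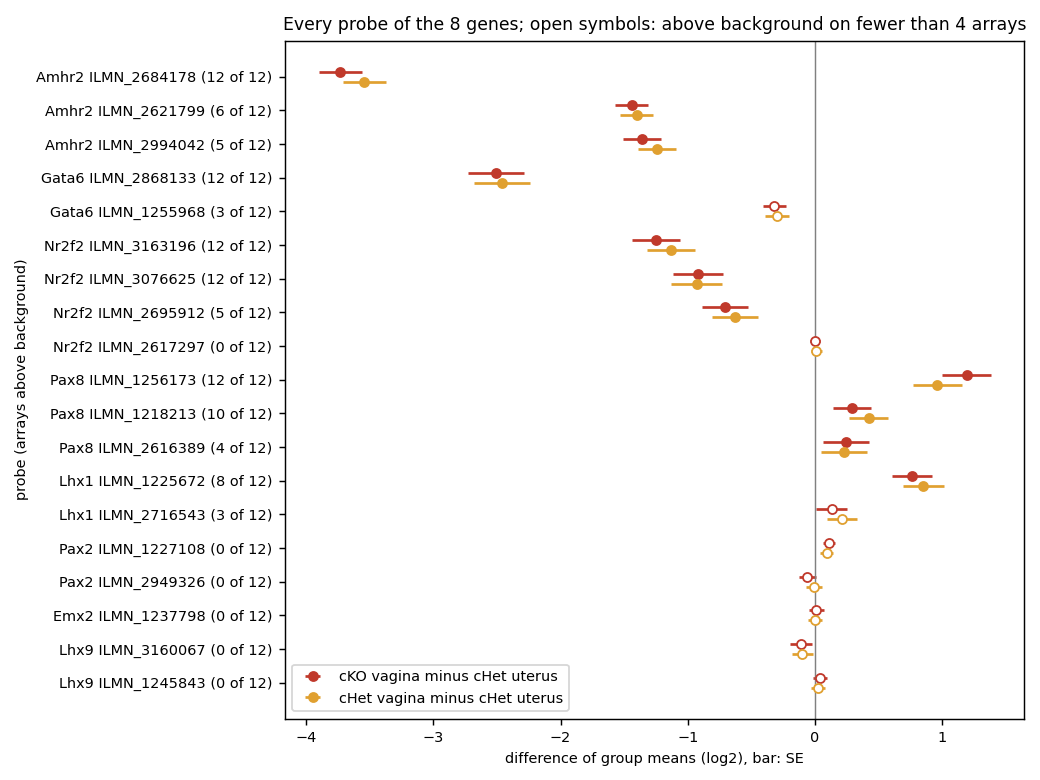
Difference of group means (log2, bars are SE) for each of the 19 probes, for cKO vagina minus cHet uterus (red, upper of each pair) and cHet vagina minus cHet uterus (yellow). Filled symbols are the 11 probes above background on at least 4 arrays, and open symbols are the others. The 3 Amhr2 probes and 3 of the Nr2f2 probes lie left of 0, 2 Pax8 probes lie right of 0, and the probes nearest to 0 are those above background on 0 arrays. The third Pax8 probe and both Lhx1 probes were above background in 0 of 4 uterus pools, so their positions rest on a uterus signal not above background. Both differences share the uterus pools.

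Pax2, Emx2 and Lhx9 could not be seen in any organ. Their 2, 1 and 2 probes were above background on 0 of 12 arrays, and with the fourth Nr2f2 probe these made 6 of the 19 probes. The brighter Pax2 probe had an intensity of 72.0 to 79.3 in cKO vagina, 75.8 to 91.6 in cHet vagina and 66.5 to 86.3 in cHet uterus, where the background modes of the arrays ran from 69.1 to 90.7. Emx2 had 68.6 to 77.7 in cKO vagina, 69.9 to 93.5 in cHet vagina and 69.6 to 86.3 in cHet uterus. The brighter Lhx9 probe had 65.0 to 76.8 in cKO vagina, 76.9 to 91.3 in cHet vagina and 67.1 to 90.4 in cHet uterus. These values say only that any signal was under the limit of these probes, and no fold was computed for them. The Cre of every sample is named for Pax2, whose own transcript was thus not detectable by these probes at this age.

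Lhx9 and Amhr2 are also genes of the ovary, and markers of that organ were read as a check on dissection. Of 14 ovary markers with a probe, 7 were not above background on any array, among them Nr5a1, Zp2, Zp3, Dazl and Figla. Their summed level ran from 59.6 to 74.8 in cKO vagina, 53.7 to 69.5 in cHet vagina and 65.6 to 100 in cHet uterus. Between cHet vagina and cHet uterus 18.6% of all genes were called, and of the 3 tested ovary markers 0 were called in any comparison. Gdf9 had the lowest limma adjusted p of these between cHet vagina and cHet uterus, 0.0576, with a difference of -0.50.

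Comparing cKO with cHet vagina asked whether these genes depended on Trp63. Among the 5 members that passed the filter, 0 separated the groups, where 4.34% of all genes did not overlap (1.69% higher and 2.65% lower in cKO vagina). The difference of cKO minus cHet vagina was -0.19 (SE 0.17) for Amhr2, 0.23 (SE 0.19) for Pax8, -0.09 (SE 0.16) for Lhx1, -0.12 (SE 0.19) for Nr2f2 and -0.05 (SE 0.22) for Gata6 (log2). Each difference was smaller than the larger SD of its 2 groups. In the vaginal pools Amhr2 read only 1.21 to 1.51 times the array's background mode, Gata6 1.16 to 1.31 times and Lhx1 1.13 to 1.42 times. A further fall of these genes in cKO vagina could hardly have shown. Between the organs the picture was the opposite, with 5 of 5 not overlapping for cHet vagina against cHet uterus and 5 of 5 for cKO vagina against cHet uterus, where 21.6% of all genes did not overlap in each. Of all genes, 10.8% were non-overlapping and higher in cHet vagina and 10.8% lower, and for cKO vagina 10.5% were higher and 11.1% lower. These 2 comparisons share the uterus pools, and since the members were singled out on such differences their counts carry no weight against the background.

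Genes of the related lists gave no call in cKO vagina either. Of the 40 tested genes of the 5 lists, limma called 0 between cKO and cHet vagina, where 0.384% of all genes were called (0.0536% higher and 0.33% lower). An unadjusted limma p under 0.05 was found for 4 of the 40 and for 790 of all 11202 genes tested. The median of the 40 was 0.04, against -0.009 over all genes. The genes of highest mean intensity in each list had differences of -0.27 for Ctnnb1 (beta-catenin), 0.11 for Wnt5a, -0.04 for Gata2, -0.20 for Lmo4 and 0.13 for Gli3, a hedgehog effector. For Lmo4 all cKO vagina pools lay below all cHet vagina pools (limma adjusted p = 0.857), and its second probe had -0.53. Over all genes, 4.34% did not overlap between these groups. Markers of kidney and nephric duct summed to 894 to 1400 in cKO vagina and 486 to 696 in cHet vagina, and Cdh16, a cadherin of those tubules, rose in cKO vagina by 1.29 (SE 0.23, limma adjusted p = 0.0221). The other 3 tested markers of that list had -0.08 (Slc12a1), -0.15 (Slc12a3) and -0.03 (Ret), with limma adjusted p from 0.947 to 0.993. Wnt4, a ligand needed for duct formation, came nearest. It had 5.11, 5.23, 5.51 and 5.45 in cKO vagina replicates 1 to 4, against 6.15, 6.74, 5.63 and 6.10 in cHet vagina and 7.49, 7.19, 7.23 and 7.22 in cHet uterus (log2). The 3 groups did not overlap, with cKO vagina lowest and cHet uterus highest. The difference of cKO minus cHet vagina was -0.83 (SE 0.19, limma adjusted p = 0.0840), and a second probe had -0.81. Without cHet vagina replicate 3, in which Wnt4 was lowest, it was -1.01 and was called (limma adjusted p = 0.0215). It was -1.28 in replicates 1 and 2 and -0.38 in replicates 3 and 4, and its limma adjusted p lay between 0.0215 and 0.555 over 23 alternatives.

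**Figure D3:**
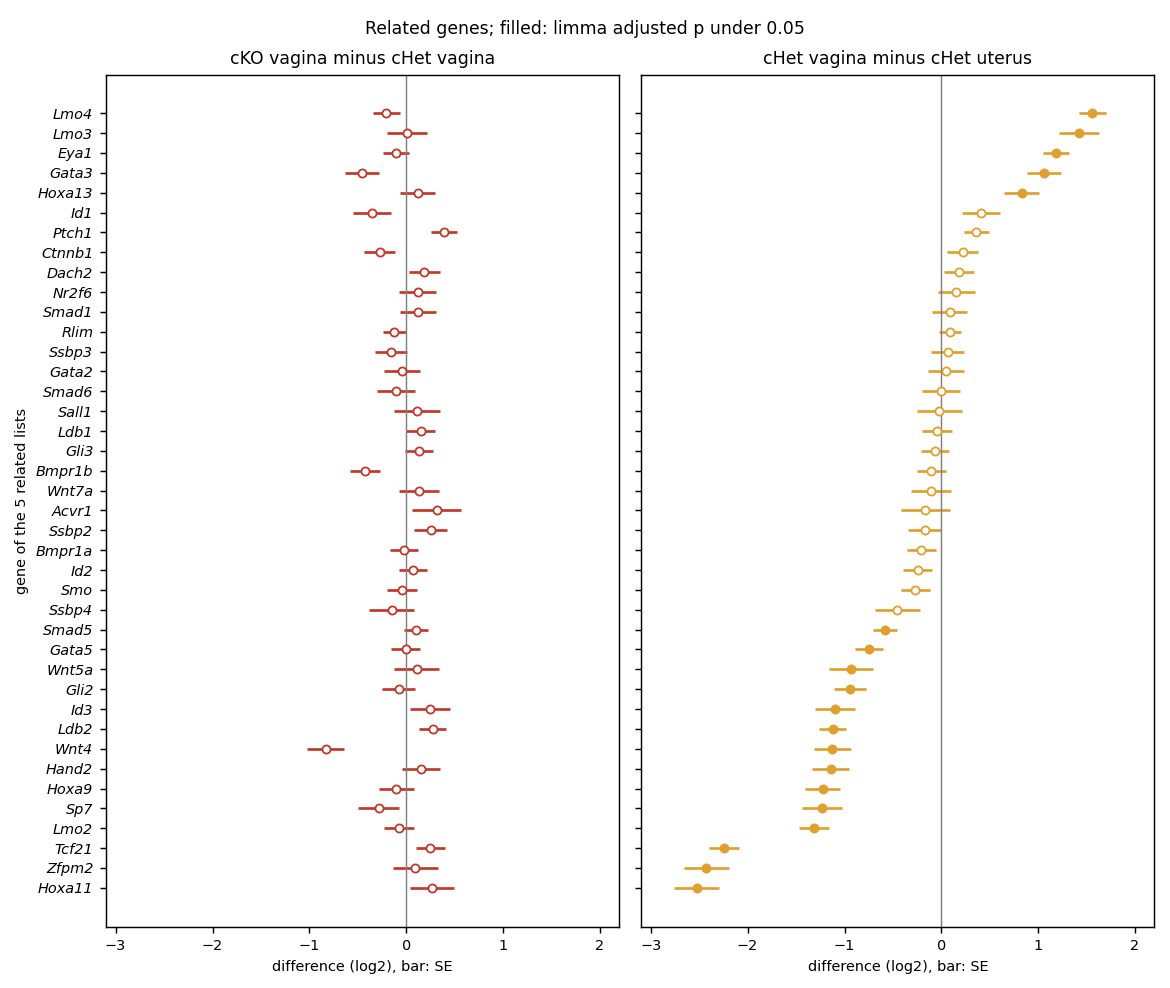
Differences (log2, bars are SE) of the 40 tested genes of the 5 related lists, for cKO minus cHet vagina on the left and cHet vagina minus cHet uterus on the right, ordered by the values on the right. Filled symbols passed a limma adjusted p under 0.05. On the right 5 genes are filled above 0 and 14 below, and on the left none is filled and Wnt4 lies farthest from 0.

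Between the organs, many genes of these lists did differ. Of the 40, limma called 5 higher and 14 lower in cHet vagina than in cHet uterus, or 47.5%, where 18.6% of all genes were called; the median was -0.14, against -0.015 over all genes. For cKO vagina against cHet uterus it called 6 higher and 15 lower, or 52.5%, where 18.3% of all genes were called (8.9% higher and 9.4% lower). The lists were written with earlier results of these data known, so these counts carry no weight against the background. The calls for cKO vagina included Bmpr1b, a type I receptor of BMP signals, with -0.53 (limma adjusted p = 0.0226), which was not called without cKO vagina replicate 1, cKO vagina replicate 2 or cHet uterus replicate 2. Gata3, at least 1.29-fold higher in cKO vagina (limma adjusted p = 0.0232), was not called without cKO vagina replicate 1, cHet uterus replicate 2 or cHet uterus replicate 4, and Wnt5a, with -0.82 (limma adjusted p = 0.0186), was not called without cKO vagina replicate 2. Of 17 genes of duct formation and patterning 10 were tested, with 2 higher and 5 lower in cHet vagina. Tcf21, a factor of urogenital mesenchyme, had 8.38 ± 0.27 in cHet vagina and 10.62 ± 0.13 in cHet uterus (log2, mean ± SD, 4 pools each), which differ by -2.24 (SE 0.15, limma adjusted p = 2.92e-08). Hoxa11 had -2.53 (limma adjusted p = 6.65e-07), Hoxa9, a Hox gene of the oviduct end, -1.22 (limma adjusted p = 0.000108), Wnt4 -1.12 (limma adjusted p = 0.000414) and Wnt5a, a mesenchymal Wnt ligand, -0.93 (limma adjusted p = 0.00827). Hoxa9 was -0.72 and no longer called within replicates 1 and 2 (limma adjusted p = 0.0509), and Wnt5a was -0.66 and no longer called as the mean of its kept probes (limma adjusted p = 0.0701). Hoxa13, a gene of the distal tract, was higher in cHet vagina by 0.83 (limma adjusted p = 0.00318). Its second probe had 0.21, and within replicates 1 and 2 the difference was 0.46 and no longer called (limma adjusted p = 0.271). Wnt7a, an epithelial Wnt ligand needed for duct patterning, had 7.67 ± 0.39 in cKO vagina, 7.54 ± 0.38 in cHet vagina and 7.64 ± 0.19 in cHet uterus (log2, SD, n = 4 each).

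Cofactors of the Lim homeobox and GATA factors split between the organs. Of 14 genes 11 were tested, with 3 called higher and 3 lower in cHet vagina than in cHet uterus. The shares over all genes were 9.41% higher and 9.14% lower. Lmo4, a Lim-only protein of epithelium, was higher by 1.56 (SE 0.14, limma adjusted p = 6.59e-07). Lmo3 was higher by 1.42 (SE 0.21, limma adjusted p = 8.99e-05), with its probe above background in 2 of 4 uterus pools. The second Lmo3 probe had 0.52, and the difference was 0.58 with no background correction. Eya1, a transcriptional coactivator needed in kidney development, was above background in 0 of 4 uterus pools and was at least 1.93-fold higher in cHet vagina (limma adjusted p = 7.43e-06). It passed the filter only through the vaginal groups, so its uterus level is a bound. Lower in cHet vagina were Lmo2, a Lim-only protein of blood vessels and blood precursors, by a log2 difference of -1.32 (SE 0.16, limma adjusted p = 1.12e-05), Ldb2, which bridges Lim proteins, by -1.12 (SE 0.14, limma adjusted p = 1.99e-05), and Zfpm2, given above. Ldb1, the general bridge of Lim homeobox factors, had 9.94 ± 0.15 in cKO vagina, 9.79 ± 0.14 in cHet vagina and 9.83 ± 0.29 in cHet uterus (log2, SD, n = 4 each).

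The genes most like each member were named by the smallest mean absolute difference between profiles over the 12 arrays, each gene centred on its own mean. For Amhr2 these were Hoxd9 (0.168 on the log2 scale), Scin, an actin-severing protein (0.202), Hoxd10 (0.236), the serpin gene Serpinb6b (0.285) and Hoxd4 (0.297), where the median over 11201 genes was 1.61. Hoxd9 had 4.83 in cKO vagina, 5.14 in cHet vagina and 8.60 in cHet uterus (mean log2). For Gata6 the nearest were Srpx2 (0.141) and Zfpm2 (0.158), for Nr2f2 Csgalnact1 (0.142) and Edn1 (0.151), for Pax8 Dlx6 (0.168) and Ppm1h (0.174), and for Lhx1 Ahnak (0.115) and Cracr2b (0.120). Among the members, Gata6 was 15th in the order of likeness to Amhr2, at 0.527, and Pax8 and Lhx1 lay 0.288 apart. The median over genes was 0.522 from Pax8 and 0.42 from Lhx1. Lhx1 ranked 210 in likeness to Pax8, and Pax8 ranked 989 in likeness to Lhx1. The measure takes in differences between organs and between pools alike.

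**Figure D4:**
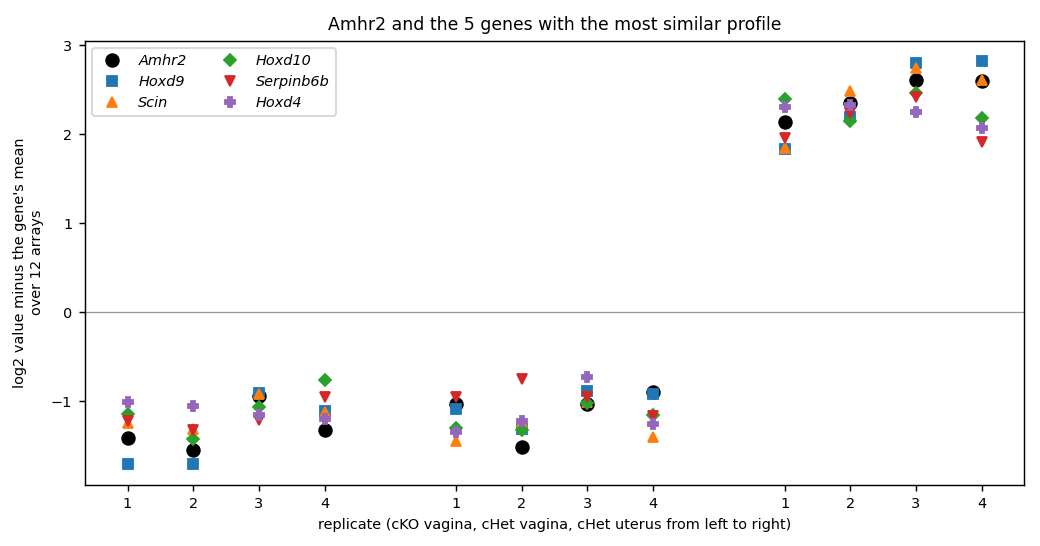
Log2 values of Amhr2 (black circles) and the 5 genes with the most similar profile, each minus its own mean over the 12 arrays, by group and replicate. In each of the 6 genes the 4 cHet uterus pools lie above 0 and the 8 vaginal pools below it.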

How the data were processed

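Illumina arrays read biotin-labelled cRNA, per the labels' protocols, from 12 pools of 3 mice, 4 pools per group. The deposited values used here were linear intensities of 45281 probes, with array means of 248.3 to 252.2, and no source used here names how the authors scaled them. Another 24 columns of per-sample values were left out because their names fit none of the labels.

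The background of each array was the mode of its intensities, with an SD from the values below the mode. Intensities were corrected with normexp in limma 3.58.1 (R 4.3.3), raised by an offset of 16 and quantile normalized, and log2 was taken. Above background means over the 99% point of the background distribution, and a probe needed this on at least 4 arrays to be kept. The brightest kept probe stood for its gene, which left 11202 genes. A bound ("at least") sets the mean of the brighter group against the lowest signal above background on the dimmer group's arrays. Symbols come from the platform annotation, and promoter sequences from RefSeq (GRCm38.p6), for 7 of the 8 members.

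One limma model (lmFit, eBayes) held the 3 groups and all 12 arrays. Adjusted p-values are Benjamini-Hochberg over all genes, two-sided, called under 0.05, and measure the spread between pools. The members, lists and tests were chosen with earlier results of these data known. All members, called list genes and the brightest gene of each list in the comparison without calls were named, with the 5 profiles most like Amhr2 and 2 for each other kept member; genes not called were added after their values were seen. Same-numbered cHet vagina and cHet uterus pools deviated together in 4 of 4 pairs (0.117 to 0.431 across genes); no label says what a number shares. The alternatives changed the background correction, the offset, the normalization, the filter, the probe choice, a replicate block, the sets of replicates and the arrays in the fit. The number of arrays limits the precision.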

Additional observations from a re-analysis of the deposited data

Results flagged for a closer look

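Among the 11 kept probes of the members and the 40 tested genes of the related lists, 153 groups of 4 pools were checked for a pool far from the other 3, and 5 were found, all in list genes; chance gives about 1 in 20 groups. Id3 in cKO vagina replicate 3 had 6.37, with 6.89 to 6.98 in the other cKO pools (log2). Gata5 in cHet vagina replicate 3 had 4.18, with 4.12 to 4.13 in the others, all below background. In cHet uterus, Smad6 had 5.30 in replicate 2 and 4.64 to 4.75 in the others, Id2 had 10.65 in replicate 3 and 10.20 to 10.24 in the others, and Wnt4 had 7.49 in replicate 1 and 7.19 to 7.23 in the others.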

How the results depend on the processing

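Over 23 alternatives 0 of 40 called list gene results changed sign, and 30 of 40 calls were kept under every alternative that tested the gene. Of the 15 member differences, the 5 of cKO minus cHet vagina moved by less than 1 SD throughout. The others kept their direction and changed in size. With no background correction, cHet vagina minus cHet uterus was -2.41 for Amhr2, 0.52 for Pax8, 0.28 for Lhx1, -0.83 for Nr2f2 and -1.35 for Gata6, and cKO vagina minus cHet uterus was -2.49, 0.67, 0.25, -0.89 and -1.37. With an offset of 50, cHet vagina minus cHet uterus was -2.79 for Amhr2, 0.65 for Pax8, 0.37 for Lhx1 and -1.67 for Gata6, and cKO vagina minus cHet uterus was -2.89, 0.83, 0.32 and -1.70. With the mean of the kept probes, cHet vagina minus cHet uterus was -2.06 for Amhr2, 0.54 for Pax8 and -0.90 for Nr2f2, and cKO vagina minus cHet uterus was -2.18 for Amhr2 and 0.57 for Pax8. For Nr2f2 these 2 differences were -0.84 and -0.89 in replicates 1 and 2 alone, and -1.42 and -1.61 in replicates 3 and 4 alone. An added constant or uncorrected background shrinks log2 differences of dim probes by construction; the cause of the other shifts was not tested.

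Genes called between cKO and cHet vagina numbered 43, 77 with the replicate block, 94 with a block for the 2 sets, 69 in replicates 1 and 2 alone and 13 in replicates 3 and 4 alone. Leaving out 1 array gave 21 to 46, where omitting cKO vagina replicate 1 left 23, cHet vagina replicate 1 left 21 and cHet vagina replicate 2 left 23. In replicates 1 and 2 alone, 1323 genes were called for cHet vagina against cHet uterus and 1299 for cKO vagina against cHet uterus. List genes called between cKO and cHet vagina numbered 0 to 1 with an array left out, and 1, always Wnt4, with the mean of kept probes, with the set block, in replicates 1 and 2 alone and without cHet vagina replicate 3. With the replicate block, 1 list call was gained between cHet vagina and cHet uterus (Ptch1) and 1 between cKO vagina and cHet uterus (Ssbp4, -0.60, limma adjusted p = 0.0219, against 0.0908 without the block). Same-numbered cKO and cHet vagina pools correlated over 0.1 in 3 of 4 pairs (0.0663 to 0.491). Counted over the pools of both groups together, 4 correlated best with their own number and the others did not. The design states no pairing, and whether pools were paired was not tested. For cKO vagina and cHet uterus, 3 of 4 same-numbered pairs correlated over 0.1 (0.074 to 0.31). Over the pools of both these groups together, only 3 correlated best with their own number. Levels near background limit Lhx1, the dimmer probes of Amhr2, Gata6 and Nr2f2, and in vagina also the brightest probes of Amhr2 and Gata6.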
